A study of Mus musculus with 8 samples.

Results

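The liver genes described here are 10 cytochrome P450 genes of family 2 that are expressed without an inducing drug: Cyp2d9, Cyp2d10, Cyp2d12, Cyp2d22, Cyp2d26 and Cyp2d40, then Cyp2j5 and Cyp2j6, then Cyp2e1 and Cyp2f2. They were chosen by name, each by its brightest array row annotated to a single gene, and make up 10 of the 22180 genes tested. All 10 were measured and none was filtered out for being dim. Total RNA of 8 livers was hybridised to single-colour expression arrays. The 4 knockout livers came from mice given adeno-associated virus (AAV) that expresses Cre recombinase, by vein, and the labels call them NCOR knockout (NCOR_KO). The 4 control livers (WT) came from mice given AAV that expresses GFP, and the labels call them wild-type, although the series' design text names floxed NCOR mice for both viruses. All mice were 3 months old and on normal chow, and livers were taken 2 weeks after the injection at 5 pm, which is ZT10. The labels give neither the promoter that drives Cre nor the sex of the mice. The virus follows the group exactly, so an effect of Cre and an effect of losing NCOR cannot be told apart. Values of the targeted gene were not analysed here. The labels call the livers biological replicates, and the p-values below cover the spread between these arrays.

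P450 enzymes of family 2 sit in the endoplasmic reticulum, where they take electrons from P450 reductase and cytochrome b5 and insert oxygen into drugs, steroids and fatty acids. In mouse liver the Cyp2a, Cyp2b and Cyp2c genes are known for their induction by drugs through the receptors CAR and PXR. The genes described here are known instead for steady expression set by liver factors such as HNF4A, by growth hormone and by the position of the hepatocyte in the lobule. Cyp2d9 encodes a testosterone hydroxylase that is higher in male liver. Cyp2d22 has been proposed as the mouse counterpart of human CYP2D6. Cyp2j5 encodes an arachidonic acid epoxygenase. Cyp2e1 encodes the pericentral enzyme that oxidises ethanol and acetaminophen, and Cyp2f2 encodes a periportal enzyme known for epoxidising naphthalene. NCOR is a corepressor protein brought to genes by nuclear receptors, and the question here is how these steady P450 transcripts stand without it.

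Upstream sequences are shown because the Cyp2d genes with lower values shared a short arrangement of letters near their start sites. The promoter table from RefSeq (GRCm38.p6) held 8 of the 10 genes; for Cyp2d12 and Cyp2d22 no sequence was used here. The last 120 bases before each annotated start are printed 5′ to 3′ on the strand of the gene. Capitals mark CAAAGNNCA, the core of a kind of site bound by HNF4A, and TTTATAA, letters of the kind bound by the basal factor TBP, each searched on both strands. The windows lie at chr15:82452257-82452376 on the plus strand for Cyp2d9, and on the minus strand at chr15:82407195-82407314 for Cyp2d10, chr15:82764123-82764242 for Cyp2d40 and chr15:82794246-82794365 for Cyp2d26. Those of Cyp2e1 and Cyp2f2, whose values differed little between the groups, lie on the plus strand at chr7:140763699-140763818 and chr7:27119835-27119954.
Cyp2d9: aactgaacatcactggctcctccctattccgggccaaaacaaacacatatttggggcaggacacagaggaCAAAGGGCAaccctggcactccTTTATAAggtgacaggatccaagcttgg
Cyp2d10: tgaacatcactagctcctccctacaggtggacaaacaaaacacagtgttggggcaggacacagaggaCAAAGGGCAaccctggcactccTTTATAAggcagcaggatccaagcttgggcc
Cyp2d40: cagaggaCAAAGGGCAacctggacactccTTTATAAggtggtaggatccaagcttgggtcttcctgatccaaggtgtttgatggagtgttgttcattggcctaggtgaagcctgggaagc
Cyp2d26: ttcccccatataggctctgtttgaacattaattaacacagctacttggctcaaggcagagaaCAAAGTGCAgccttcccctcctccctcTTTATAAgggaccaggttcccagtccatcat
Cyp2e1: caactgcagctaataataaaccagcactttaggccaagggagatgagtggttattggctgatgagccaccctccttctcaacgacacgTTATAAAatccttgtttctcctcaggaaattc
Cyp2f2: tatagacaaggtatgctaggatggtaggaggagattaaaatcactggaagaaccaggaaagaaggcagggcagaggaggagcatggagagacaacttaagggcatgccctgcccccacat

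CAAAGNNCA followed by TTTATAA on the strand of the gene was found in all 4 of the Cyp2d genes with a sequence here and in 0 of the other 4 (Cyp2j5, Cyp2j6, Cyp2e1 and Cyp2f2). Cyp2d22, with a log2 change of -0.01, and Cyp2d12 had no sequence here. These windows therefore cannot tell whether the letters go with lower values or only with the Cyp2d subfamily. The gap between the runs was 13 bases in Cyp2d9, Cyp2d10 and Cyp2d40 and 18 bases in Cyp2d26. CAAAGNNCA began at position -50 in Cyp2d9, -53 in Cyp2d10, -58 in Cyp2d26 and -113 in Cyp2d40, counted from the annotated start. Cyp2e1 carried TTTATAA on the opposite strand only, so its own strand read TTATAAA, from -32 to -26. That does not show that Cyp2e1 lacks a site for TBP. CAAAGNNCA was present in 2.55% and TTTATAA in 1.75% of the same 120-base windows of 32851 RefSeq start sites, and the ordered pair in 8 windows (0.0244%). Of the 7 tested genes that hold the pair, 5 are Cyp2d genes; the other 2, Slc3a1 and 1810053B23Rik, had a median log2 change of 0.13, with 0 that fell and 1 whose groups did not overlap with the knockout higher. These letters were picked after the Cyp2d sequences had been read, so the rarity of the pair is a description of them and a match is not a shown binding site. Over the 250 bases before the start, the best local alignment of Cyp2d9 with Cyp2d10 was 85.2% identical over 243 columns, with Cyp2d40 80.8% over 177 columns, and with Cyp2d26 67.9% over 81 columns. The search covered 5 motifs in all. The run TTCCGG, the core letters recognised by GABP and other ETS factors, was found in the 120-base window of Cyp2d9 at position -94 and in no other member's window, against 8.07% of all windows. GTTAAT was found in Cyp2d26 alone among the members, on the opposite strand at position -90, against 3% of all windows. TTCNNNGAA was found in 0 members, against 3.15% of all windows.

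Cyp2d40 was the 1 gene of the 10 that passed the test across all genes, and it was lower in knockout liver. Its control livers read 8.99, 8.76, 8.82 and 8.65 on the log2 intensity scale, and its knockout livers 7.75, 8.01, 8.31 and 8.45. Every knockout value lay below every control value, and the knockout livers were spread more widely than the controls. The fall was 1.59-fold, a log2 change of -0.67 ± 0.14 SE (limma adjusted p = 0.0435, n = 4 per group). Across all genes 1.65% passed in either direction and 0.834% passed as lower, so 1 of 10 members rests on a single gene. The log2 change of Cyp2d40 kept its sign in every refit, which separate groups fix in advance when arrays are left out. The call was lost when WT replicates 1, 2, 3 or 4 or NCOR_KO replicates 1, 2 or 3 were left out in turn (limma adjusted p from 0.0687 to 0.133). It was kept without NCOR_KO replicate 4 (limma adjusted p = 0.0269). The log2 change of Cyp2d40 lay between -0.78 and -0.55 over all 17 alternative fits.

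Cyp2d9, the testosterone hydroxylase gene, read 12.04, 12.09, 12.26 and 12.08 in control and 11.60, 11.74, 11.94 and 11.85 in knockout liver. The groups did not overlap, and the knockout mean was 1.26-fold lower (log2 change -0.33 ± 0.08 SE, limma adjusted p = 0.0831), which did not pass. Cyp2d10, whose upstream sequence is closest to that of Cyp2d9 among the members, read 9.94, 9.92, 9.94 and 9.96 in control and 9.75, 9.70, 9.76 and 9.72 in knockout liver. These were the tightest groups among the Cyp2d genes, with SDs of 0.02 and 0.03, and they did not overlap. The knockout mean was 1.15-fold lower (log2 change -0.21 ± 0.05 SE, limma adjusted p = 0.0822), which did not pass.

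Cyp2d26, with the longer gap in its upstream letters, read 12.05, 12.03, 12.01 and 11.91 in control and 11.72, 11.83, 11.77 and 11.85 in knockout liver. Here too every knockout value lay below every control value. The log2 change was -0.21 ± 0.06 SE (limma adjusted p = 0.115), which did not pass. Groups that do not overlap, with the knockout lower, were thus seen in 4 of 10 members, Cyp2d9, Cyp2d10, Cyp2d26 and Cyp2d40, beside 5.49% of all genes (10.4% in either direction), and 0 members were separate with the knockout higher, beside 4.9% of all genes. They were the same 4 that had an unadjusted p under 0.05, beside 8.15% of all genes that had one with a lower knockout value and 15.9% in either direction. Among 224 genes with a mean of at least 12, 57 had separate groups in either direction, a larger share than over all genes. The 4 members had means from 8.47 to 11.95, and the share of separate genes at those levels was not counted. The plot of the members by array shows these 4 separations on panels of equal height.

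**Figure D1:**
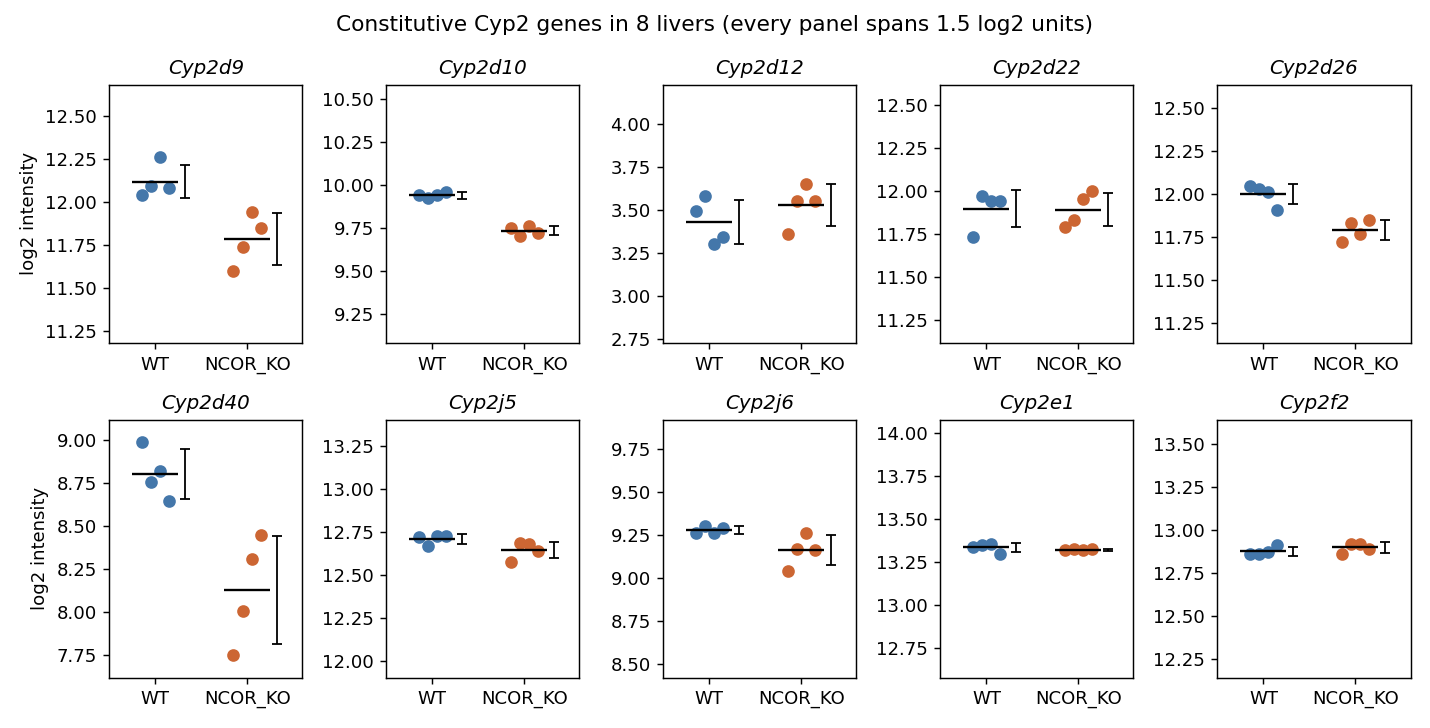
Log2 intensity (vertical axis) of the 10 genes in 4 WT and 4 NCOR_KO livers; points are arrays, lines are group means and bars beside them are ± 1 SD. Cyp2d9, Cyp2d10, Cyp2d26 and Cyp2d40 show no overlap between the groups, with Cyp2d40 from 8.65 to 8.99 in WT and from 7.75 to 8.45 in NCOR_KO livers.

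Cyp2d22, the proposed CYP2D6 counterpart, read 11.73, 11.97, 11.94 and 11.94 in control and 11.79, 11.83, 11.95 and 12.00 in knockout liver. The groups overlapped over nearly their whole range. The log2 change was -0.01 ± 0.08 SE, with a 95% confidence interval from -0.17 to 0.16 (limma adjusted p = 0.980). Cyp2d12, a further Cyp2d gene, gave the weakest signal of the 10 (3.43 ± 0.13 in control and 3.52 ± 0.12 in knockout arrays, SD, n = 4), where the median gene had a mean of 5.88. Its log2 change of 0.10 (95% confidence interval -0.09 to 0.28, limma adjusted p = 0.615) therefore says little.

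Over the 6 Cyp2d genes the median log2 change was -0.21, with 5 of 6 below 0, 1 that fell, 0 that rose and 5 that did not pass. Over all 10 members the median was -0.09 with 8 below 0, beside a median of 0.01 over all genes, of which 10641 of 22180 were below 0. Probe sets of closely related Cyp2d genes can take signal from each other, and the likeness of the probed transcripts was not measured here. How far the rows of Cyp2d9, Cyp2d10 and Cyp2d40 share signal was not tested.

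Cyp2j5, the epoxygenase gene, read 12.72, 12.67, 12.73 and 12.73 in control and 12.58, 12.69, 12.68 and 12.64 in knockout liver. The highest knockout value lay just above the lowest control value. The log2 change was -0.06 ± 0.05 SE, with a 95% confidence interval from -0.18 to 0.06 (limma adjusted p = 0.605). Its neighbour Cyp2j6 read 9.26, 9.30, 9.26 and 9.29 in control and 9.04, 9.17, 9.26 and 9.16 in knockout liver. Only the third knockout replicate reached the control range, and the spread was wider in knockout liver, with an SD of 0.09 against 0.02. The log2 change was -0.12 ± 0.06 SE, with a 95% confidence interval from -0.25 to 0.02 (limma adjusted p = 0.374). Of the 2 Cyp2j members 0 passed, and 0 had an unadjusted p under 0.05.

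Cyp2e1, the pericentral ethanol oxidase gene, read 13.34, 13.35, 13.36 and 13.30 in control and 13.32, 13.33, 13.32 and 13.33 in knockout liver. The knockout values all lay inside the control range. The log2 change was -0.01 ± 0.05 SE, with a 95% confidence interval from -0.13 to 0.10 (limma adjusted p = 0.922). Cyp2f2, the periportal naphthalene oxidase gene, read 12.86, 12.86, 12.87 and 12.91 in control and 12.86, 12.92, 12.92 and 12.89 in knockout liver. Its groups overlapped, with a log2 change of 0.02 ± 0.05 SE and a 95% confidence interval from -0.09 to 0.14 (limma adjusted p = 0.874). A second, dimmer row for Cyp2f2 read 6.83 ± 0.04 in control and 6.81 ± 0.18 in knockout liver (SD, n = 4), so both rows differed by little between the groups.

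Cyp2e1, Cyp2f2 and Cyp2j5 were read near the top of the array's scale, which ended at 13.70 in these data. Of 224 genes with a mean of at least 12, 6 passed the test (2.68%), among them the desaturase gene Scd1 (log2 change 0.34) and the glutathione transferase gene Gstp1 (-0.35). Their means over all arrays were 13.05 and 12.65, and both were picked after their values had been seen. Of the 5 genes at least as bright as Cyp2e1 (mean 13.33), itself included, 0 passed by limma and 0 had an unadjusted p under 0.05. Whether a change at the level of Cyp2e1 would be compressed was not tested.

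**Figure D2:**
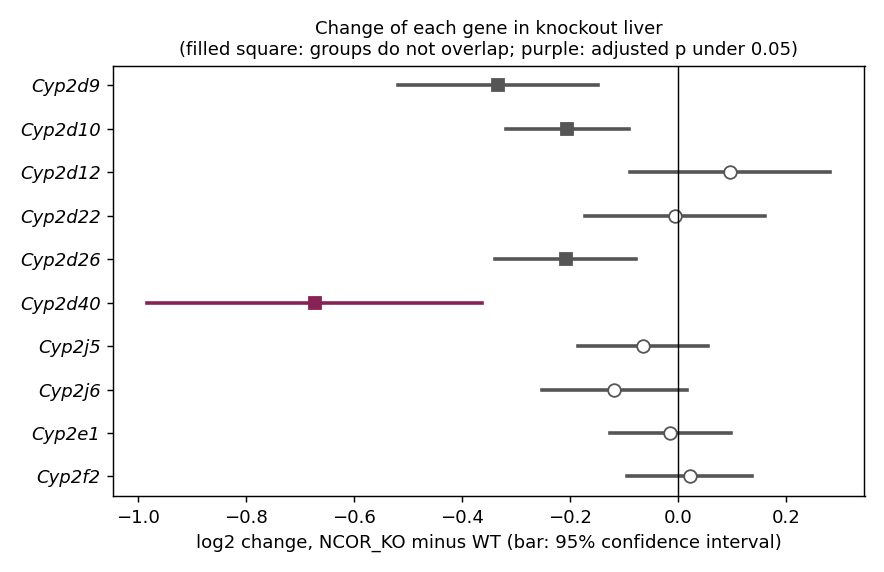
Log2 change of each gene, NCOR_KO minus WT (horizontal axis), with its 95% confidence interval from limma. Cyp2d40 at -0.67 is the gene past the threshold, Cyp2d9, Cyp2d10 and Cyp2d26 have intervals below 0, and the intervals of the other 6 genes include 0.

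Unequal change within the same arrays was tested for 4 pairs of members, by exact two-sided permutation over the 70 ways to split the 8 arrays, whose smallest possible p is 0.0286. The difference Cyp2d22 minus Cyp2d40 was larger in knockout than in control liver by 0.67 on the log2 scale and was higher in all 4 knockout arrays than in any control (exact permutation p = 0.0286, or 0.114 adjusted over the 4 pairs), so it did not pass after adjustment. Cyp2d9 minus Cyp2d26 changed by -0.12, Cyp2j5 minus Cyp2j6 by 0.05 and Cyp2e1 minus Cyp2f2 by -0.04, each with an adjusted exact p of 0.229. Those p-values do not show that the genes of a pair change alike.

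The arrays themselves added a pattern across members. NCOR_KO replicate 1 was the lowest of the 4 knockout arrays for 8 of the 10 genes, all except Cyp2d10 and Cyp2e1, while among the control arrays no replicate was lowest for more than 3. How often that array was the lowest over all genes was not counted here. A trait of the members and a trait of the whole array therefore cannot be told apart. Without that array the log2 change was -0.55 for Cyp2d40 (limma adjusted p = 0.0768), -0.27 for Cyp2d9, -0.21 for Cyp2d10 and -0.19 for Cyp2d26. With groups that do not overlap, leaving out an array could not change these signs. The same array had the lowest summed intensity of Kupffer cell and macrophage markers among the knockouts, 4009 against 5883 to 6864 in the other 3, and WT replicate 2 the lowest among the controls, 3522 against 5408 to 6335. The part of those markers in the low member values was not tested. Median intensities of the 8 arrays ran from 41.0 to 44.1, and with 4 arrays in each group the precision of all values is limited.

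The Cyp2d genes lie together on chromosome 15, and their chromosome order in RefSeq allowed the rest of the cluster to be set beside the members. This view was chosen after values had been seen. Of 10 measured Cyp2d genes and pseudogenes in the cluster, 9 were lower in knockout liver, 5 of them with groups that did not overlap, and 1 passed the test. Their median log2 change was -0.25. Across all genes 5.49% had separate groups with the knockout lower, and 10641 of 22180 were below 0. Among genes with a mean of at least 12 the share with separate groups in either direction was larger, as given above. Of the 10 measured genes beside the cluster, 5 on each side, 8 were also below 0, with a median of -0.02. Their changes ran from -0.18 (Smdt1) to 0.06, with 1 of 10 not overlapping and 0 past the test. Septin3, Wbp2nl, Pheta2, Mir3080 and AW121686 among them were below the median gene in level.

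Cyp2d37-ps, an annotated pseudogene next to Cyp2d40 in this order, read 10.42, 10.79, 10.76 and 11.34 in control and 10.10, 9.89, 10.33 and 10.01 in knockout liver. Its groups did not overlap, and its log2 change of -0.75 ± 0.17 SE missed the threshold (limma adjusted p = 0.0593). Cyp2d13, also annotated as a pseudogene, read 11.45, 11.57, 11.69 and 11.86 in control and 11.02, 11.24, 11.55 and 11.33 in knockout liver. The third knockout replicate of Cyp2d13 exceeded the lowest control value, and its log2 change was -0.36 ± 0.12 SE (limma adjusted p = 0.164). Cyp2d11 and Cyp2d34, both below the median gene in level, had log2 changes of -0.27 and -0.23 (limma adjusted p = 0.179 and 0.217). The upstream sequence of Cyp2d11 held the same pair of runs with a gap of 13 bases and was 93.0% identical to that of Cyp2d9 over 227 columns. At the ends of the cluster, Cyp2d22 was at -0.01 and Cyp2d26 at -0.21.

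The Cyp2j genes lie together on chromosome 4 and showed no common direction. Of 7 measured, 3 were below 0 and 0 passed, with a median of 0.09 and a range from -0.12 (Cyp2j6) to 0.40 (Cyp2j8). Cyp2j8, Cyp2j11, Cyp2j12 and Cyp2j13 were below the median gene in level, and the median change is that of Cyp2j11. Cyp2j9 was at 0.28 ± 0.18 SE (limma adjusted p = 0.481). Among the genes beside that cluster, Jun, an immediate early transcription factor gene, rose by 1.13 ± 0.20 SE (limma adjusted p = 0.0277). In the list of the 9 measured Cyp2d and Cyp2j genes that are not members, 0 rose and 0 fell by limma and the median was -0.01. An unadjusted p under 0.05 was seen for 5 of them, beside 15.9% of all genes. Those 5 were Cyp2d11, Cyp2d13, Cyp2d34 and Cyp2d37-ps, all lower in knockout liver, and Cyp2j12, higher at 0.25. The median thus pools Cyp2d genes that were lower with Cyp2j genes most of which were above 0.

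**Figure D3:**
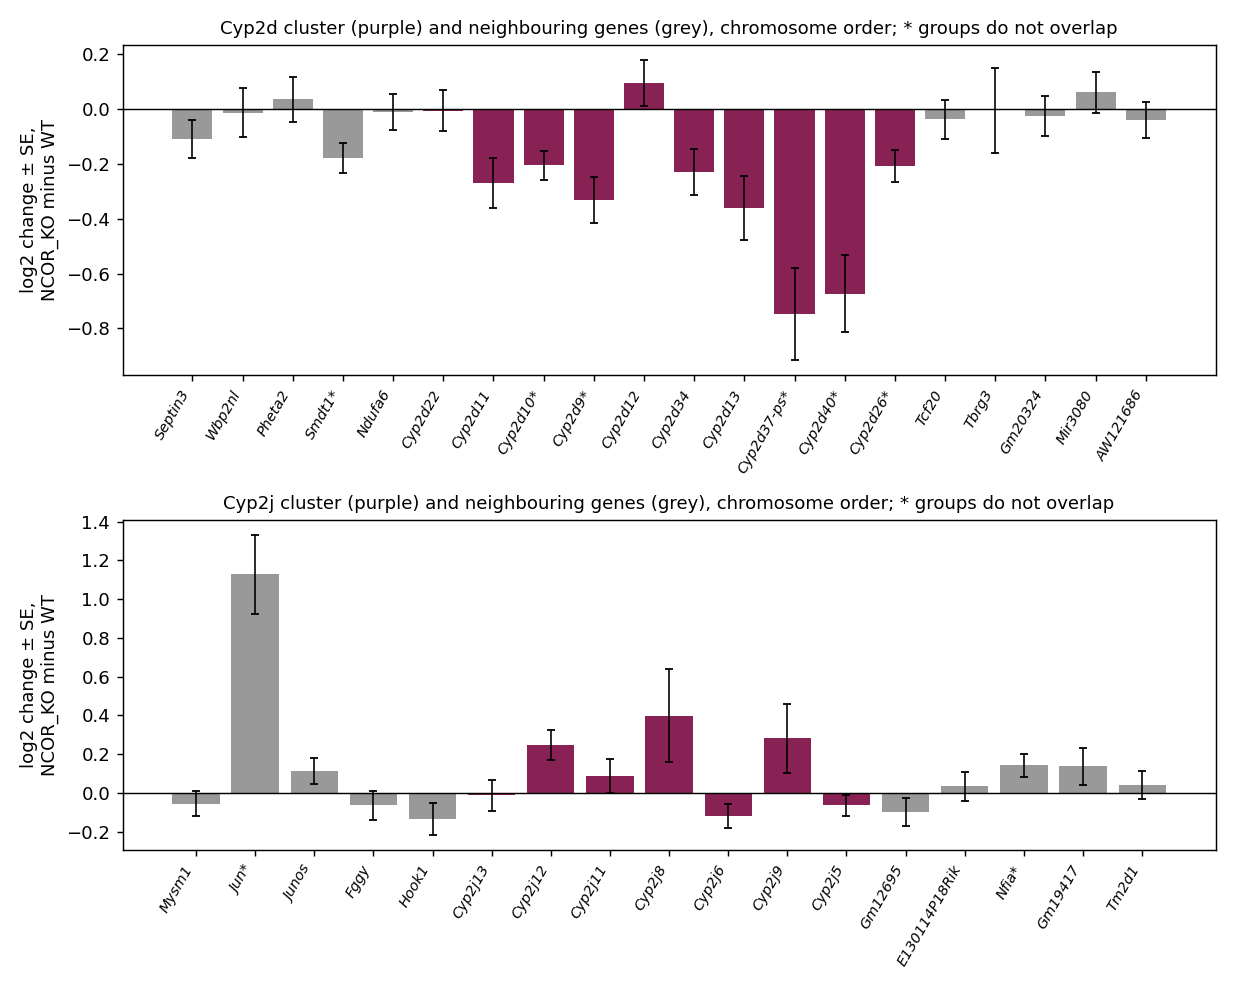
Log2 change, NCOR_KO minus WT, ± SE (vertical axis) of the measured genes of the Cyp2d cluster (top) and the Cyp2j cluster (bottom) in chromosome order, with 5 measured genes on each side in grey; an asterisk marks groups that do not overlap. In the Cyp2d cluster 9 of 10 genes lie below 0, from -0.75 to -0.01, and Cyp2d12 at 0.10 lies above it. Of the 10 grey genes beside that cluster 8 lie below 0, with a median of -0.02.

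Among the inducible P450 genes in the same livers the calls were all rises. Of 23 measured Cyp2a, Cyp2b and Cyp2c genes 4 rose, 0 fell and 19 did not pass, with a median log2 change of 0.18. The genes that rose were Cyp2c55 (1.48), Cyp2c38 (1.28), Cyp2a5 (0.74) and Cyp2a4 (0.74), at limma adjusted p-values of 0.00102, 0.0146, 0.0381 and 0.0355. Cyp2b9 had the largest change of the 23 at 2.10 ± 0.52 SE, with overlapping groups, and did not pass (limma adjusted p = 0.0772). Cyp2a4 and Cyp2b9 are also held by the female-biased list below. Cyp2b10 did not pass either, at 0.56 (limma adjusted p = 0.148), and Cyp2c29 was at 0.01 (limma adjusted p = 0.930). Of the 23 genes 19 were above 0 and 4 below it. The background for a rise is 0.816% of all genes. Members and inducible genes were not tested against each other.

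Genes that serve P450 enzymes were measured beside them. Of 7 electron donor genes 0 passed by limma and 2 had an unadjusted p under 0.05; Cyb5b, a cytochrome b5 gene, had the largest log2 change at 0.22 ± 0.07 SE (limma adjusted p = 0.164). Of 11 genes of heme synthesis and breakdown 0 passed and 4 had an unadjusted p under 0.05, with Hmox1, the inducible heme oxygenase gene, at 0.25 (limma adjusted p = 0.413), or 0.14 without WT replicate 4. Ppox, the protoporphyrinogen oxidase gene, also had a log2 change of 0.25, and its groups did not overlap (limma adjusted p = 0.112). Of 4 epoxide hydrolase genes, which act on the products of epoxygenases such as CYP2J5, 0 passed and 2 had an unadjusted p under 0.05, with Ephx1 at 0.20 (limma adjusted p = 0.171) and Ephx2 in the other direction at -0.17, its groups not overlapping (limma adjusted p = 0.197). The medians of the 3 lists were 0.12, 0.11 and 0.01.

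Of 21 measured genes for factors known to act on constitutive P450 genes, 1 rose, 1 fell and 19 did not pass, with a median of -0.07. Cebpa, which encodes the hepatocyte factor C/EBPα, fell by 0.35 on the log2 scale (SE 0.06, limma adjusted p = 0.0158). Stat5a, which encodes a growth hormone signal transducer, rose by 0.47 (limma adjusted p = 0.0179). Hnf4a, whose product binds sites like the run printed above, was at 0.04 ± 0.07 (limma adjusted p = 0.845). The growth hormone receptor gene Ghr was at -0.24 (limma adjusted p = 0.0587) and its groups did not overlap.

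Because Cyp2d9 is known as a male-biased gene, lists of male-biased and female-biased liver genes were set beside it. Of 19 male-biased genes 4 fell, 1 rose and 14 did not pass, with a median of -0.29. Those that fell were Selenbp2 (-1.72), Susd4 (-1.05), Cyp7b1 (-0.84) and Gstp1 (-0.35), and the elongase gene Elovl3 rose by 0.72. Hsd3b5, a male-biased steroid reductase gene, was at -1.65 with groups that did not overlap (limma adjusted p = 0.0624). Of 14 female-biased genes 2 rose, Cyp2a4 and Cyp3a44 (0.74 and 0.71), 0 fell and 12 did not pass, with a median of 0.18. Of the 19 male-biased genes 15 were below 0 and 4 above it. Mup20 (12.92 and 12.91) and Ugt2b1 (12.98 and 12.99) read nearly alike in control and knockout liver. Of the 14 female-biased genes 11 were above 0 and 3 below it, and Sult2a1 was dim in both groups (3.33 and 3.43). The sex of the animals was not given, and whether the arrays of the 2 groups match in sex was not tested.

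Position in the lobule was covered with lists that do not hold Cyp2e1 or Cyp2f2. Of 20 pericentral genes, the zone in which Cyp2e1 is expressed, 3 fell, 0 rose and 17 did not pass, with a median of -0.06. They were the ammonium transporter gene Rhbg (-0.89, limma adjusted p = 0.00921), Gulo, the last enzyme of vitamin C synthesis (-0.43, limma adjusted p = 0.0275), and the constitutive P450 gene Cyp1a2 (-0.33, limma adjusted p = 0.0429). Glul, the glutamine synthetase gene of the same zone, was at -0.00461 (limma adjusted p = 0.981). Of the 20 pericentral genes 15 were below 0 and 5 above it. An unadjusted p under 0.05 was seen for 10 of them, beside 15.9% of all genes in either direction. Their summed intensity was 42882 to 44346 in control and 40341 to 41916 in knockout arrays, without overlap. Of 17 periportal genes, the zone of Cyp2f2, 0 passed by limma and 6 had an unadjusted p under 0.05, with a median of -0.05 and Apoa4, an apolipoprotein gene, at 0.72 (limma adjusted p = 0.0586). The sums of the periportal genes overlapped, at 60711 to 65220 in control and 61412 to 64478 in knockout arrays.

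Liver cell type markers were checked beside the members. Alb, the albumin gene, read 13.52 ± 0.02 in control and 13.52 ± 0.04 in knockout liver (SD, n = 4), and 0 of 14 hepatocyte markers passed, with 0 at an unadjusted p under 0.05, a median of -0.01, Serpina1a at -0.12 (limma adjusted p = 0.340) as the largest change and a summed intensity of 101129 to 105032 in control and 100837 to 103380 in knockout arrays. The 8 cholangiocyte markers were all above 0, with 4 at an unadjusted p under 0.05 and 1 that rose (Epcam, 0.41). Krt7 and Krt19 were at 0.07 and 0.08. Krt7, Epcam, Cftr, Cldn7 and Tspan8 read below the median gene in control liver. The 8 markers summed to 439 to 451 in control and 499 to 573 in knockout arrays. Of 12 endothelial markers 11 were above 0 and 1 rose (Robo4, 0.35), with sums of 7646 to 9368 in control and 9145 to 10598 in knockout arrays. An unadjusted p under 0.05 was seen for 8 of these 12, beside 15.9% of all genes in either direction. Of 11 lymphocyte markers 8 were above 0, 3 were below it and 4 had an unadjusted p under 0.05. Cd3e (0.47) and Cd79a (0.41) rose, both from a control level below the median gene (5.57 and 5.08). Cd3g, Cd4 and Klrb1c were at -0.04, -0.30 and -0.01. The lymphocyte sums were 516 to 586 in control and 559 to 668 in knockout arrays. Of 12 Kupffer cell and macrophage markers and 10 stellate and fibroblast markers 0 passed, with 0 at an unadjusted p under 0.05, medians of 0.11 and 0.03, and overlapping sums (3522 to 6335 against 4009 to 6864, and 4584 to 5058 against 4508 to 5316). The largest change among macrophage markers, Vsig4 at 0.33, was 0.07 without WT replicate 2 and 0.54 without NCOR_KO replicate 1. The largest among stellate markers, Lrat at -0.36, was -0.24 without NCOR_KO replicate 1. The part of these markers in the lower Cyp2d values was not tested, and in whole liver fewer cells of a type and less RNA per cell cannot be told apart.

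Genes whose pattern over the 8 arrays was most like that of a member were found by Pearson's r among 7847 genes with a mean of at least 7. For Cyp2d40 they were Cpn2, a subunit gene of plasma carboxypeptidase N (r = 0.99), and Rnf31 (r = 0.98). For Cyp2d9 they were Hs6st1 and Tmem19 (r = 0.97 each), for Cyp2d10 Tent4a (r = 0.99) and Ints13 (r = 0.98), and for Cyp2d26 Psenen (r = 0.98) and Serpina1c (r = 0.97). For Cyp2j6 the closest was Slco1a1, a male-biased organic anion transporter gene (r = 0.98). Of these genes Tmem19 (-0.44, limma adjusted p = 0.0153) and Tent4a (-0.35, limma adjusted p = 0.0141) fell. These values describe 8 arrays in 2 groups, so a shared difference between the groups raises r, and the highest of 7847 values is high by selection.

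**Figure D4:**
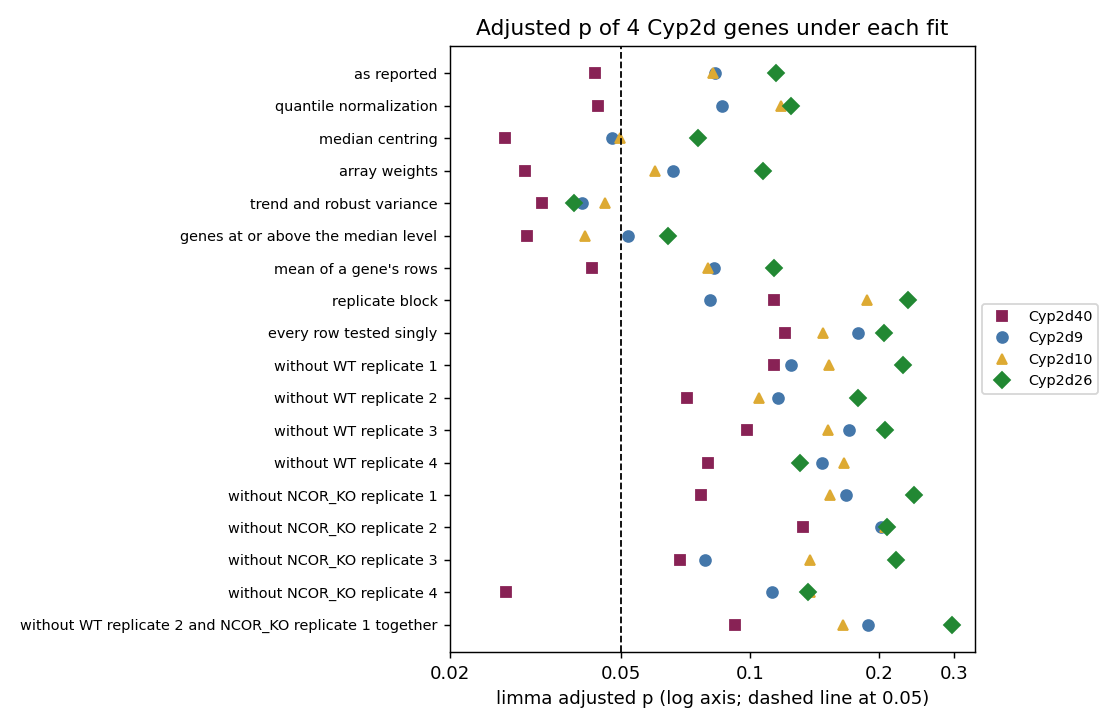
Limma adjusted p (horizontal, log axis, dashed line at 0.05) of Cyp2d40, Cyp2d9, Cyp2d10 and Cyp2d26 in the reported fit and 17 alternatives (vertical). Cyp2d40 lies under 0.05 in the reported fit and 7 alternatives, Cyp2d10 in 3, Cyp2d9 in 2 and Cyp2d26 in 1.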

How the data were processed

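The authors deposited 1 linear intensity per probe set and array (Affymetrix Mouse Gene 2.0). RMA and Partek are named in the submitters' processing notes, with no role or version; build and filters are not stated there. The deposited intensities, from 5.42 to 13268, were taken to log2 with no further normalization. Of 41345 rows 23521 were annotated to a single gene (1814 to several and 16010 to none were left out), and the brightest row per gene by its mean over 8 arrays was kept, giving 22180 genes. Knockout and control were compared with limma 3.58.1 in R 4.3.3 (lmFit and eBayes, intercept and group), with Benjamini-Hochberg adjustment over all genes and a threshold of 0.05. The script was tested on simulated data. The 10 members, the 17 gene lists (219 of 241 symbols measured), the pairs and the tests were chosen with earlier results of these data known, so no list is independent evidence. All members were named, and of each list up to 4 genes past the threshold with the largest change, or the 1 with the largest change where none passed. Other genes named (Cyp2b9, Cyp2b10, Cyp2c29, Ppox, Ephx2, Slc3a1, 1810053B23Rik, Scd1, Hsd3b5, Mup20, Ugt2b1, Sult2a1, Ghr, Hnf4a, Glul, Gstp1, Alb, Krt7, Krt19, Cftr, Cldn7, Tspan8, Cd3g, Cd4, Klrb1c, cluster genes and their neighbours) were chosen for their role or after their values were seen. Members were aligned with Biopython 1.88 (match 1, mismatch -1, gap opening -3, extension -1). Plots used Python 3.11.15 and matplotlib 3.10.9.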

Additional observations from a re-analysis of the deposited data

Results flagged for a closer look

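Of 20 groups of 4 arrays checked, 10 genes in each of 2 conditions, 2 held an array far from the other 3 by Dixon's criterion; chance alone flags about 1 group in 20. For Cyp2d22, WT replicate 1 read 11.73 while the other control arrays read 11.94 to 11.97. For Cyp2j5, WT replicate 2 read 12.67 while the other control arrays read 12.72 to 12.73.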

How the results depend on the processing

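The count of members past the threshold, 1 in the reported fit (Cyp2d40), was 1 with quantile normalization, array weights or the mean of a gene's rows. It was 3 with each array centred on its median (Cyp2d9, Cyp2d10 and Cyp2d40), 4 with a trend and robust variance (those and Cyp2d26), 2 with genes at or above the median level (Cyp2d10 and Cyp2d40), 0 with every row tested singly, 0 without WT replicate 2 and NCOR_KO replicate 1 together (chosen after seeing the data), and 0 and 3 at adjusted p thresholds of 0.01 and 0.1. Leaving out single arrays gave 0 to 1. In every one of these 17 refits 4 or 5 members had an unadjusted p under 0.05, beside 15.9% of all genes in the reported fit. The share of all genes with such a p in each refit was not counted. Over all genes the calls split into 181 higher and 185 lower as reported and 147 and 383 with median centring; the total of 366 was 551 with the filter on level, 114 with rows tested singly, 120 to 297 without single arrays and 202 without both. Among list genes named as past the threshold, Cyp2c55, Cyp3a44, Rhbg, Selenbp2 and Susd4 passed in all 17 alternatives, Cyp2c38 in 15, Stat5a and Cebpa in 12, Elovl3 in 10, Gulo and Cyp2a5 in 9, Cyp2a4 and Gstp1 in 8, Cyp1a2, Epcam and Robo4 in 6 and Cyp7b1 in 5, and of 16 fits Cd79a in 11 and Cd3e in 5. Cyp1a2 and Epcam passed in 0 of the fits without a single array.

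The replicate number did not pair the arrays: same-numbered deviations correlated at -0.09 to 0.02, and no array correlated best with its own number. With the number as a replicate block 0 members passed (155 genes in all, against 366), and Cyp2d40 had an adjusted p of 0.114. For the 4 pairs of members, the mean within-number differences equal the group differences by arithmetic (-0.04, 0.05, -0.12 and 0.67). Their exact sign-flip p-values were 0.375, 0.375, 0.125 and 0.125, where 0.125 is the smallest possible.

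The 4 Cyp2d genes with separate groups kept a negative log2 change in all 17 alternatives. Because every knockout value lay below every control value, leaving arrays out could not have changed that sign. Refits that altered only the variance, the set of genes or the block left the change itself as it was. Cyp2d22 changed sign in 7, Cyp2e1 in 1 and Cyp2f2 in 1. Intensities give no count of molecules, so depth could not be used.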

Other observations

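Members of family 2 outside the main liver families were also measured. Of 7 genes 0 rose and 0 fell by limma, 2 had an unadjusted p under 0.05, and the median log2 change was 0.06. Cyp2g1, an olfactory P450 gene, had the largest change (log2 means of 5.98 ± 0.20 for controls and 5.49 ± 0.29 for knockouts, SD, n = 4; limma adjusted p = 0.131).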
